A study of Mus musculus with 36 samples.

Results

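The carbonic anhydrase genes Car1, Car2, Car4, Car8, Car12 and Car13 and the epithelial ion transport genes Slc26a3, Slc26a6, Slc9a3 and Cftr were followed through the mouse small intestine, 10 genes of the 27179 gene IDs counted. They were chosen by name, and all 10 were found in each of the 12 count files and passed the filter on low counts, Car1 through its reads in tissue alone. Carbonic anhydrases interconvert carbon dioxide and bicarbonate, so they supply the ions that neighbouring transporters exchange. In the absorptive epithelium a sodium/proton exchanger and a chloride/bicarbonate exchanger work side by side to take up salt, while CFTR lets chloride and bicarbonate out into the lumen. Such transport sets how much water the gut absorbs or secretes.

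The mice either carried the long noncoding RNA lnc13 (wild type, WT) or lacked it (knockout, KO), and the series' title links lnc13 to restraint of inflammation and tolerance to eaten gluten. Whole small intestine, preparations of lymphocytes from the lamina propria (LPL) and preparations of lymphocytes from within the epithelium (IEL) came from lnc13-WT-DQ8 and lnc13-KO-DQ8 mice, and the mice of both genotypes had been challenged with gluten. Each of these 6 groups had 2 libraries labelled as biological replicates. CD8 IELs were sequenced as well, as an unstimulated set and as a set cultured for 48 h in IL-15, each with 3 lnc13-WT and 3 lnc13-KO libraries, and their labels name neither DQ8 nor gluten. DQ8 is a human HLA class II type tied to coeliac disease, and here it is shared by WT and KO. Age was not given in the sources used here, and lnc13 itself was not analysed here and gave no check of the genotypes.

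The count libraries held between 10186522 and 13620975 reads in genes, and levels are given as CPM (counts per 1e6 reads) on library sizes scaled by the trimmed mean of M-values (TMM). Tissue replicate 2 of both genotypes had the Y-linked gene Ddx3y at 34.0 and 38.7 CPM, against at most 0.109 CPM in the other 10 libraries. Tissue and the preparations with the same replicate number therefore did not all come from the same mice. The epithelial marker list (8 genes, among them Epcam, Vil1 and Krt20) summed to 20915 to 30492 CPM in tissue, 8153 to 11075 in LPL and 9289 to 10746 in IEL, so the preparations named for lymphocytes held much epithelial RNA. The T cell list (9 genes) summed to 304 to 997 CPM in IEL against 9.09 to 265 in LPL and 50.0 to 95.0 in tissue. The distal intestine list (6 genes, among them the ileal bile acid genes Fabp6 and Slc10a2) summed to 6627 to 8345 CPM in tissue, 215 to 396 in LPL and 350 to 561 in IEL. The proximal list (7 genes, among them Pdx1 and Gata4) summed to 140 to 451, 267 to 490 and 2311 to 3781 CPM in the same order. The IEL sum was mostly Lct and Fabp1 (means of 1587 and 1348 CPM), and 2 of the 7 went the other way, Slc40a1 with means of 140 CPM in tissue, 32.9 in LPL and 36.5 in IEL and Cybrd1 with 2.77, 1.70 and 0.82. The tissue replicates also differed in genes of the proximal list. Lct was at 81.2 and 211 CPM in WT and KO replicate 1 against 0.330 and 0.359 CPM in replicate 2. Gata4 (23.0 and 48.9 against 1.48 and 1.68) and Fabp1 (46.2 and 85.1 against 1.40 and 0.599) went the same way. Slc40a1 and Cybrd1 were lower in replicate 1, and Pdx1 and Onecut2 were at most 0.544 CPM in tissue. Pancreatic acinar genes (12 genes) summed to 5392 to 11073 CPM in LPL against at most 90.7 elsewhere. Region of the gut, RNA extraction (TRIzol for tissue, a column kit for cells) and cell makeup all went with the preparation, and their parts in a difference between preparations cannot be told apart. In these bulk samples fewer cells of a type and less RNA per cell cannot be told apart either.

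The start regions of the 4 transport genes are shown as a description, and no link between them and the levels was tested. Each run is the 120 bases before the transcription start in RefSeq's GRCm38.p6 table, on the plus strand, written 5′ to 3′, with capitals marking a TATA box (TATAAA) or a GC box (GGGCGG) found on either strand. The windows are chr12:31438099-31438218 for Slc26a3, chr9:108853923-108854042 for Slc26a6, chr13:74121293-74121412 for Slc9a3 and chr6:18170567-18170686 for Cftr. Those of Slc26a6 and Cftr end where the annotated gene begins. Those of Slc26a3 and Slc9a3 lie inside the annotated genes, which begin at 31433142 and 74086255, and the bases before these outer ends were not read.
Slc26a3: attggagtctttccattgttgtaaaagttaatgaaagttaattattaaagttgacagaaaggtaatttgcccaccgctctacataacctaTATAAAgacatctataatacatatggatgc
Slc26a6: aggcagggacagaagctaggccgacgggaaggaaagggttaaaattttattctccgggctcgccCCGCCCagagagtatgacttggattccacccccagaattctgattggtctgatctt
Slc9a3: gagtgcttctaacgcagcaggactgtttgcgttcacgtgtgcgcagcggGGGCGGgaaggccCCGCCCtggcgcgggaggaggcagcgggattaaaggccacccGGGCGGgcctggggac
Cftr: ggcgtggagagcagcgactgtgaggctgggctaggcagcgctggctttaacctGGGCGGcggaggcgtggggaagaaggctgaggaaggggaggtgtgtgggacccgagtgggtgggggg
In its window Slc26a3 held the TATA box, which begins 30 bases before the start given in that table, and no GC box. Slc9a3 held 3 GC boxes and no TATA box, and Slc26a6 and Cftr held 1 GC box each. Of 32851 windows of the same length in the table, 6.34% held a TATA box and 26.5% a GC box. The letters CAAAGTNCA, a form of the HNF4 motif, and AGATAA, a form of the GATA motif, were in neither strand of the 4 windows, and 0.588% and 4.36% of all windows held them. The motifs do not overlap each other in these 4 windows, and a match is a description of letters only. The table gave a start region for 6 of the 10 genes.

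The carbonic anhydrases differed from each other in where they were read, as the plot of their levels by library shows. Of the 6 genes, Car2 was higher in IEL than in tissue, Car4, Car8 and Car12 were lower, and Car13 did not pass the test. Between LPL and tissue Car8 was higher and Car4 and Car13 were lower. Car1 had no reads in LPL or IEL, so its test supports no call. Tests are edgeR's quasi-likelihood test over all 14716 genes that passed the filter, with p-values adjusted by Benjamini-Hochberg and called under 0.05. CPM levels are compared between libraries for 1 gene at a time and not between genes, since no exon lengths were used.

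**Figure D1:**
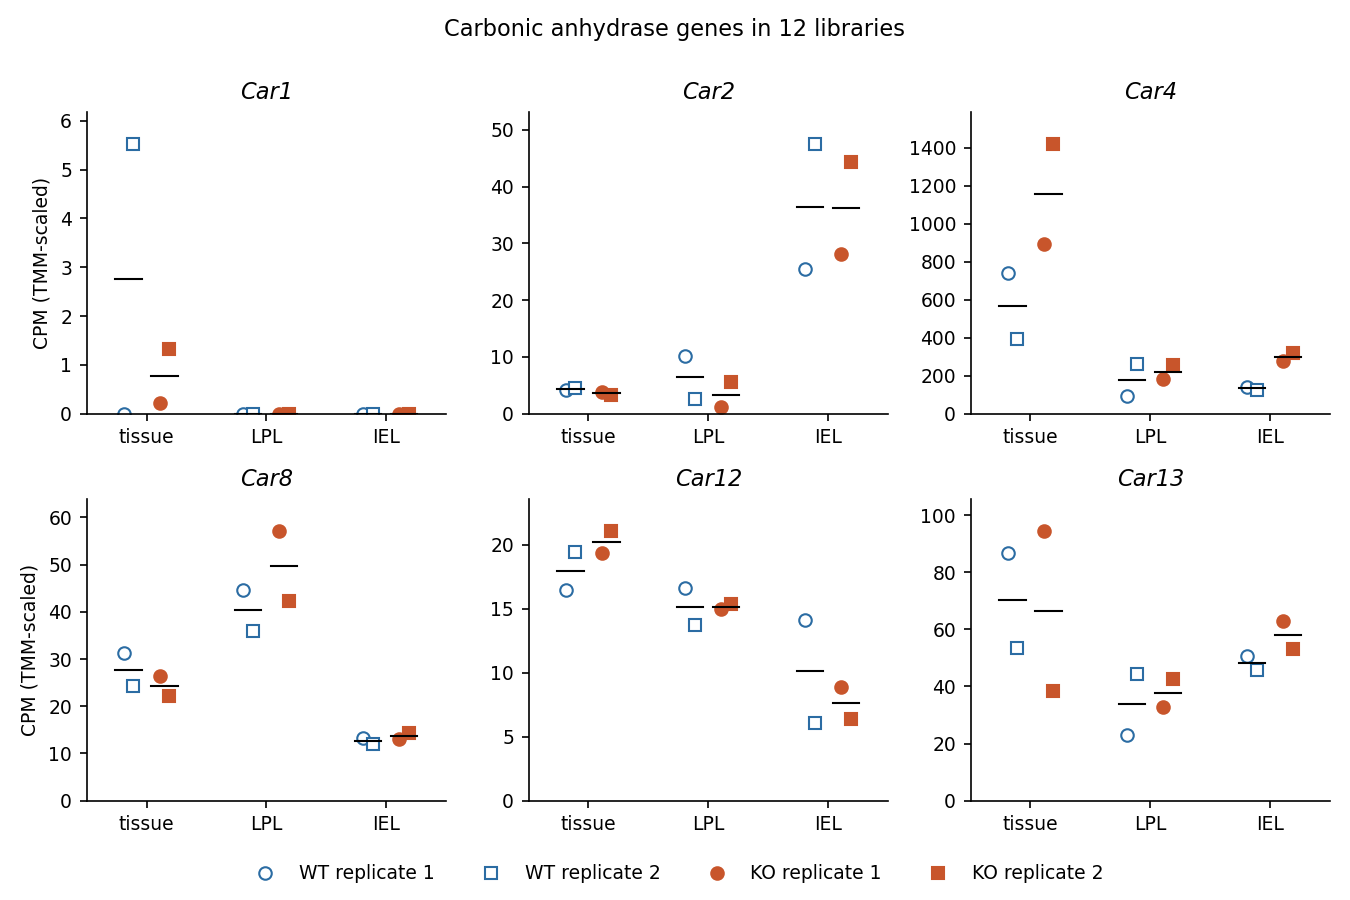
CPM on TMM-scaled library sizes (y axis, starting at 0, a separate scale for each gene) of the 6 carbonic anhydrase genes in the tissue, LPL and IEL libraries (x axis). Points are single libraries and black lines are means of 2, and Car2 stands at 25.4 to 47.5 CPM in IEL against at most 10.2 CPM elsewhere, while Car1 has no reads in LPL or IEL.

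Car2 (gene ID 12349, chromosome 3, 14886269 to 14900770 in GRCm38) encodes a fast cytosolic enzyme, known from red cells, kidney and gut. Tissue had it at 4.23 and 4.54 CPM in WT and 3.80 and 3.35 CPM in KO. In LPL it was at 10.2 and 2.66 CPM in WT and 1.13 and 5.56 CPM in KO. In IEL it was at 25.4 and 47.5 CPM in WT and 28.1 and 44.2 CPM in KO. All 4 IEL libraries were above all 8 others, and the tissue and LPL ranges overlapped. The log2 difference was 3.19 (SE 0.55, edgeR adjusted p = 0.00209) for IEL against tissue and 2.95 (SE 0.53, edgeR adjusted p = 0.00612) for IEL against LPL. Genes called higher made up 21.9% of all tested genes in the first comparison and 11.5% in the second, and genes called lower 23.1% and 7.92%. LPL and tissue differed by 0.24 on the log2 scale (SE 0.53, edgeR adjusted p = 0.721).

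Within the IEL preparation Car2, a T cell gene and a red cell gene were all higher in replicate 2 of each genotype. Replicate 2 of each genotype had the higher Car2 level, and it also had the higher level of the T cell receptor subunit gene Cd3e, at 78.8 and 55.3 CPM in WT and KO against 26.7 and 30.2 CPM in replicate 1. The red cell gene Hba-a1 was at 54.8 and 102.5 CPM in replicate 2 and 10.7 and 3.67 CPM in replicate 1. Between the genotypes at the same replicate number, Hba-a1 went the opposite way to Car2, and Cd3e went the same way as Car2. The ratio of Car2 to Cd3e was between 0.603 and 0.953 in the 4 IEL libraries, 0.304 to 1.38 in tissue and 1.46 to 5.63 in LPL. In WT LPL replicate 1, the LPL library with the most Car2, the T cell list summed to 265 CPM and the red cell list (5 genes) to 124.2 CPM, against 9.09 to 24.3 and 6.49 to 27.6 CPM in the other 3. The part of either cell type in the Car2 difference between preparations was not tested.

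Car2 was also read in the CD8 IEL libraries. In the unstimulated CD8 IELs, Car2 had the authors' normalised values 46407, 11771 and 22852 in WT and 22789, 21275 and 25085 in KO. In the IL-15 set it had 13443, 20310 and 14029 in WT and 15562, 17667 and 13911 in KO. Car2 ranked between 26th and 157th of all named genes in the unstimulated libraries and between 91st and 156th in the IL-15 libraries. These values are not corrected for gene length, so the ranks and other comparisons between genes here are rough. Hba-a1 stood at 0 to 7.44 without stimulation and 0 to 118 after IL-15, far below Car2 in every library. The ratio of Car2 to Cd3e was 0.844 to 2.02 without stimulation and 0.697 to 1.37 in the IL-15 set. These ranges overlapped those of IEL and tissue, and the range without stimulation also overlapped that of LPL, so the ratio does not single out IEL. The count files and the 2 CD8 tables were normalised separately, so only ratios within a library can be set side by side.

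**Figure D2:**
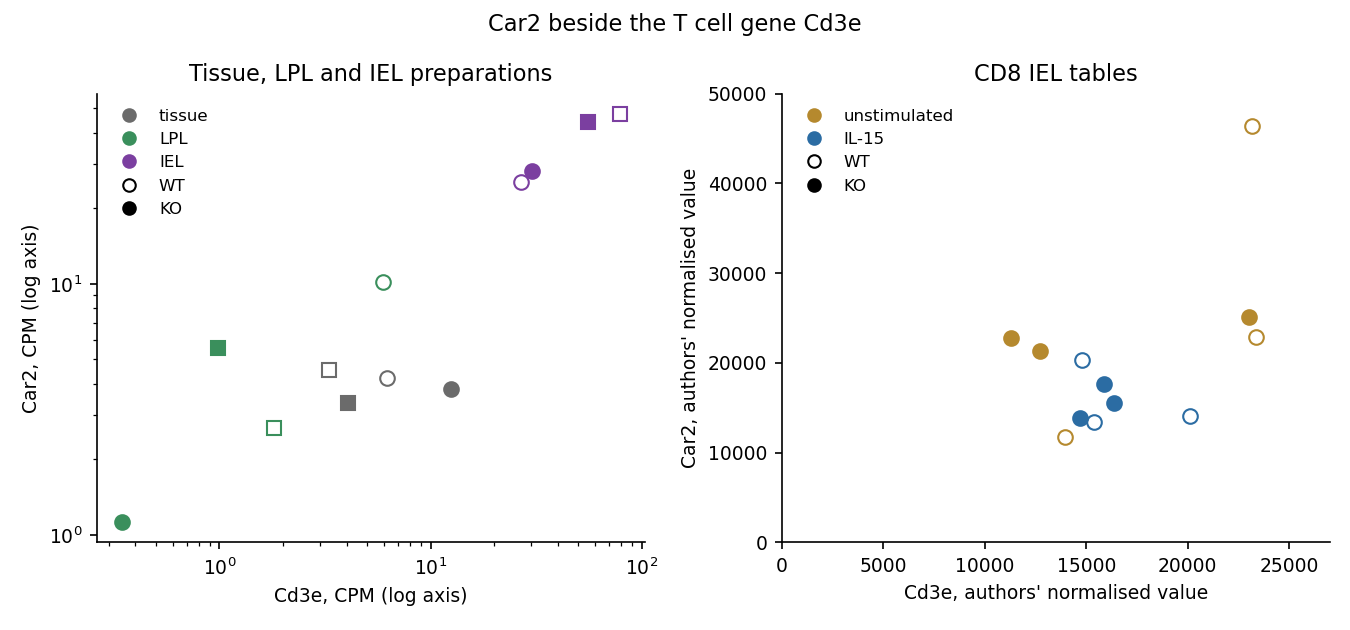
Left, Car2 against the T cell gene Cd3e in CPM, both on log axes, in the 12 tissue, LPL and IEL libraries (circles replicate 1, squares replicate 2), with the 4 IEL libraries at the top right. Right, the same genes in the authors' normalised values on linear axes in the 12 CD8 IEL libraries, where Car2 lies between 11771 and 46407. Open symbols are WT and filled symbols KO in both panels.

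The other 9 genes had low values beside Car2 in the CD8 tables, which are not corrected for gene length. Their highest value was 76.5 without stimulation and 127 after IL-15, both for Car12, a membrane-bound anhydrase that faces the outside of the cell. In the IL-15 set Car12 was at 30.7, 43.5 and 0 in WT and at 127, 63.99 and 115 in KO. The log2 difference on the log2(value + 1) scale was 3.14 (SE 1.37, limma adjusted p = 0.447), and 1.40 without WT replicate 3, the library at 0. Slc26a6 in that set was at 27.2, 35.7 and 1.99 in WT and 36.1, 61.7 and 57.0 in KO (log2 1.81, SE 0.96, limma adjusted p = 0.501), and without WT replicate 3 the difference was 0.67. The summed epithelial list stood at 1907 to 19015 in the unstimulated and 2941 to 4664 in the IL-15 libraries. Its genes Epcam and Vil1 did not go together throughout. Without stimulation they were at 1265 and 3433 in WT replicate 3. In the other unstimulated libraries Epcam was at 0 to 2.79 and Vil1 at 0.78 to 240. In the IL-15 set Epcam was at 668 to 3071 and Vil1 at 3.74 to 46.5. The part of epithelial transcripts in the low values of the 9 genes was not tested. Car2 did not differ between genotypes beyond its spread, with log2 differences of -0.01 (SE 0.45, limma adjusted p = 0.999) and -0.00 (SE 0.18, limma adjusted p = 0.999). Of the genes tested there, 0% were called in either set (0 of 17208 and 0 of 16371, with 575 and 1841 at an unadjusted p under 0.05), and this limma test was added after the values had been seen.

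Car4 (gene ID 12351, chromosome 11, 84957754 to 84966054) encodes an anhydrase anchored to the outer face of the apical membrane, beside the exchangers that use its bicarbonate. In tissue it was at 740 and 395 CPM in WT and 895 and 1419 CPM in KO. In LPL it was at 93.9 and 261 CPM in WT and 180 and 256 CPM in KO, and in IEL at 142 and 123.2 CPM in WT and 276 and 318 CPM in KO. Every tissue library was above every LPL and IEL library, and the LPL and IEL ranges overlapped. The log2 difference from tissue was -2.03 in IEL (SE 0.35, edgeR adjusted p = 0.00213) and -2.04 in LPL (SE 0.35, edgeR adjusted p = 0.0013), and IEL and LPL differed by 0.01 (SE 0.34, edgeR adjusted p = 0.989). Genes called higher made up 27.3% and genes called lower 28.0% of those tested between LPL and tissue. Per 1000 CPM of the epithelial list, Car4 was at 15.4 to 46.6 in tissue, 11.5 to 24.3 in LPL and 13.3 to 29.6 in IEL, so on that scale the ranges overlapped.

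Car8 (gene ID 12319, chromosome 4, 8141493 to 8239041) encodes a carbonic anhydrase-related protein that lacks the enzyme activity and binds the IP3 receptor. Its levels fell into 3 separate ranges, highest in LPL and lowest in IEL. In LPL it was at 44.7 and 36.0 CPM in WT and 57.2 and 42.4 CPM in KO. In tissue it was at 31.2 and 24.3 CPM in WT and 26.3 and 22.2 CPM in KO, and in IEL at 13.4 and 12.1 CPM in WT and 13.2 and 14.4 CPM in KO. The log2 difference was 0.79 for LPL against tissue (SE 0.15, edgeR adjusted p = 0.0025), -0.97 for IEL against tissue (SE 0.16, edgeR adjusted p = 0.00164) and -1.76 for IEL against LPL (SE 0.16, edgeR adjusted p = 0.000252). Scaled to the summed epithelial list the ratio of mean levels in IEL and tissue turned to 0.35 on the log2 scale, so only the excess in LPL over both others kept its direction on both scales. The crypt list (6 genes, among them Lgr5, Olfm4 and Sox9), whose cells are another epithelial type, summed to 507 to 728 CPM in LPL, 367 to 702 in IEL and 146 to 295 in tissue. Most of that sum was Olfm4 (means of 421, 372 and 90.8 CPM), Lgr5 was at means of 7.31, 6.26 and 5.69 CPM, and Axin2 went the other way with 50.6, 52.5 and 76.9 CPM. The part of crypt cells in these differences was not tested.

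Car12 (gene ID 76459, chromosome 9, 66712296 to 66766845) was at 16.5 and 19.4 CPM in WT and 19.4 and 21.1 CPM in KO tissue. In LPL it was at 16.6 and 13.7 CPM in WT and 15.0 and 15.3 CPM in KO, and in IEL at 14.1 and 6.10 CPM in WT and 8.88 and 6.36 CPM in KO. The IEL libraries were below all tissue libraries, with WT replicate 1 the highest of them and inside the LPL range. The log2 difference for IEL against tissue was -1.12 (SE 0.25, edgeR adjusted p = 0.00746), and over the epithelial list the ratio of means turned to 0.25, and that of LPL and tissue to 1.07. IEL against LPL gave -0.79 (SE 0.25, edgeR adjusted p = 0.0574). That comparison was called without the filter (adjusted p = 0.042), with RLE size factors (adjusted p = 0.0481), with DESeq2 (adjusted p = 0.0199) and without WT IEL replicate 1 (-1.16, edgeR adjusted p = 0.00837). LPL and tissue differed by -0.33 (SE 0.25, edgeR adjusted p = 0.279).

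Car13 (gene ID 71934, chromosome 3, 14641727 to 14663002), a cytosolic enzyme whose gene lies close to Car1 and Car2, varied widely inside the tissue group. Tissue had 86.9 and 53.6 CPM in WT and 94.5 and 38.3 CPM in KO, with replicate 2 the lower of each genotype. LPL had 23.1 and 44.5 CPM in WT and 32.7 and 42.8 CPM in KO, and IEL had 50.7 and 45.7 CPM in WT and 62.96 and 53.1 CPM in KO. LPL against tissue gave -0.93 (SE 0.31, edgeR adjusted p = 0.03), which was not called without WT tissue replicate 1 (-0.73, adjusted p = 0.102), KO tissue replicate 1 (-0.46, adjusted p = 0.194), WT LPL replicate 1 (-0.73, adjusted p = 0.0883), KO LPL replicate 1 (-0.79, adjusted p = 0.127) or KO LPL replicate 2 (-1.03, adjusted p = 0.054), nor with these 2 preparations fitted alone (-0.89, adjusted p = 0.0835). Over the epithelial list the ratio of means turned to 0.37. IEL differed from tissue by -0.37 (SE 0.31, edgeR adjusted p = 0.355) and from LPL by 0.57 (SE 0.31, edgeR adjusted p = 0.23). With the replicate 1 tissue libraries alone, IEL against tissue gave -0.85. Those libraries differed from replicate 2 in Ddx3y and also in regional and smooth muscle genes.

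Car1 (gene ID 12346, chromosome 3, 14766214 to 14808365), a cytosolic enzyme known from red cells and the colon, had 0 and 67 reads in WT and 2 and 11 reads in KO tissue, or 0, 5.53, 0.217 and 1.32 CPM. It had 0 reads in all 8 LPL and IEL libraries. Against a floor of 3 reads over the 4 libraries, 0.0531 CPM in LPL and 0.0717 CPM in IEL, pooled tissue was at least 36.5-fold and at least 27.1-fold higher. Without WT tissue replicate 2 the bounds were 8.40-fold and 6.22-fold. Car1 passed the filter on low counts through tissue alone, so its edgeR test supports no call and it is left out of the counts of called genes. In WT tissue replicate 2 the smooth muscle list (7 genes) summed to 3790 CPM and in KO replicate 2 to 3566 CPM, against 1279 and 855 CPM in replicate 1, and the red cell list was at 17.5 CPM there against 1.20 to 19.5 CPM in the other tissue libraries. Their part in the Car1 reads was not tested. The colon list held 4 of its 6 genes at 0 in every tissue library.

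The other carbonic anhydrase genes gave few values. Of 10 listed, 6 were tested, and 1 was called higher and 2 lower in each of LPL and IEL against tissue. Among those lower was Car3, which passed the filter through tissue alone, so its test supports no call. Over all tested genes 27.3% were called higher and 28.0% lower in LPL, and 21.9% and 23.1% in IEL. Car3, known from muscle and fat, had 700 reads in tissue and 0 in all 8 other libraries, at least 319-fold higher than the LPL floor and 237-fold higher than the IEL floor. In tissue it stood at 3.28 and 39.4 CPM in WT and 1.85 and 20.0 CPM in KO, the higher value in replicate 2 each time, as for the smooth muscle list. Car15, at 0.69 to 1.30 CPM in tissue and 1.66 to 3.70 CPM elsewhere, was called higher in LPL (log2 1.35, SE 0.33, edgeR adjusted p = 0.00776) and in IEL (1.27, SE 0.33, edgeR adjusted p = 0.0141). Car9, at 40.5 to 85.1 CPM, was called in no comparison.

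The 4 transport genes also went separate ways, as the plot of their levels by library shows. Against tissue, Slc9a3 and Cftr were higher in IEL, Cftr was higher and Slc26a6 lower in LPL, and Slc26a3 passed in neither. Against LPL, Slc26a3, Slc26a6 and Slc9a3 were higher in IEL. Of the 9 genes other than Car1 this made 3 higher and 3 lower in IEL against tissue, 2 higher and 3 lower in LPL against tissue, and 4 higher and 1 lower in IEL against LPL. The shares stand beside the 21.9% and 23.1%, the 27.3% and 28.0%, and the 11.5% and 7.92% of all tested genes given above. Over these 9 genes the median log2 difference was -0.10, -0.29 and 0.57 in these 3 comparisons, beside 0.05, 0.03 and -0.03 over all genes.

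**Figure D3:**
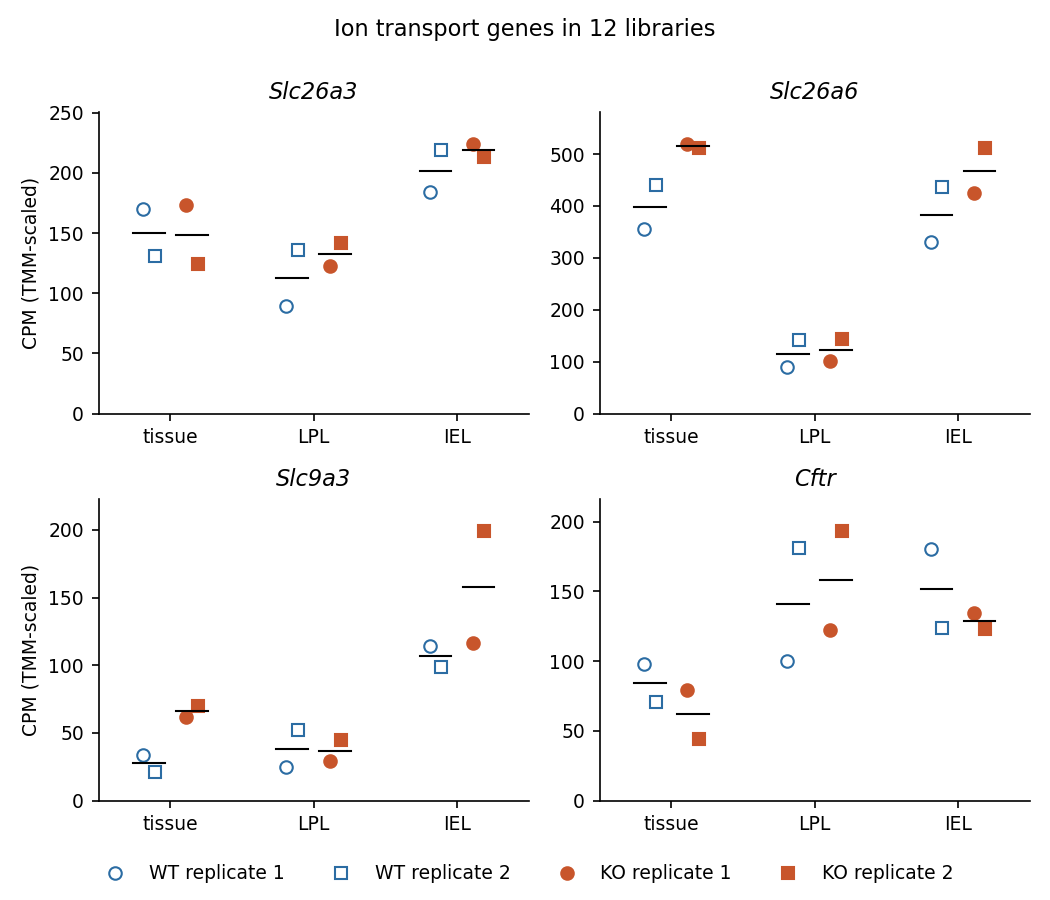
CPM on TMM-scaled library sizes (y axis, starting at 0, a separate scale for each gene) of Slc26a3, Slc26a6, Slc9a3 and Cftr in the tissue, LPL and IEL libraries (x axis). Points are single libraries and black lines are means of 2. Slc9a3 lies at 99.0 to 199 CPM in IEL against at most 70.2 CPM elsewhere, and Slc26a6 at 89.1 to 144.1 CPM in LPL against at least 330 CPM elsewhere.

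Slc9a3 (gene ID 105243, chromosome 13, 74086255 to 74169442) encodes the sodium/proton exchanger NHE3 of the brush border, the main route of sodium uptake in absorptive cells. In IEL it was at 114 and 99.0 CPM in WT and 117 and 199 CPM in KO. In tissue it was at 33.7 and 21.3 CPM in WT and 62.1 and 70.2 CPM in KO, and in LPL at 25.1 and 51.9 CPM in WT and 29.1 and 44.5 CPM in KO. Every IEL library was above all others, and tissue and LPL overlapped. The log2 difference was 1.61 for IEL against tissue (SE 0.29, edgeR adjusted p = 0.00246), 1.78 for IEL against LPL (SE 0.29, edgeR adjusted p = 0.00364) and -0.18 for LPL against tissue (SE 0.28, edgeR adjusted p = 0.608). Per 1000 CPM of the epithelial list it was at 10.7 to 18.5 in IEL, 2.70 to 4.69 in LPL and 0.829 to 2.30 in tissue.

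Slc26a6 (gene ID 171429, chromosome 9, 108854043 to 108913049) encodes PAT1, an apical exchanger of chloride for bicarbonate and oxalate that is most active in the upper small intestine. In tissue it was at 355 and 440 CPM in WT and 520 and 511 CPM in KO, and in IEL at 330 and 436 CPM in WT and 425 and 511 CPM in KO. In LPL it was at 89.1 and 141 CPM in WT and 101 and 144.1 CPM in KO, below every library of the other preparations. The log2 difference was -1.93 for LPL against tissue (SE 0.21, edgeR adjusted p = 0.000109) and 1.83 for IEL against LPL (SE 0.21, edgeR adjusted p = 0.000736). IEL and tissue overlapped (log2 -0.10, SE 0.20, edgeR adjusted p = 0.717), although over the epithelial list the ratio of their means was 1.27 on the log2 scale. The 3 genes with the closest pattern over the 12 libraries were Mfsd4b3-ps, Phyh and Gpd1, with r of 0.99 each.

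Slc26a3 (gene ID 13487, chromosome 12, 31433142 to 31473922) encodes DRA, the chloride/bicarbonate exchanger whose loss in people causes congenital chloride diarrhoea. Its fitted differences between preparations were at most 0.78 on the log2 scale, whereas over the epithelial list the ratio of means was 1.82 for IEL over tissue and turned to 1.04 for LPL over tissue. In tissue it was at 170 and 131 CPM in WT and 173 and 124.2 CPM in KO, in LPL at 89.7 and 136.1 CPM in WT and 123.1 and 142 CPM in KO, and in IEL at 184 and 219 CPM in WT and 224 and 213 CPM in KO. Every IEL library was above the rest, and tissue and LPL overlapped. IEL against LPL gave 0.78 (SE 0.18, edgeR adjusted p = 0.0175), which was not called without KO LPL replicate 1 (0.70, adjusted p = 0.115), WT IEL replicate 2 (0.67, adjusted p = 0.114), KO IEL replicate 1 (0.74, adjusted p = 0.0788) or KO IEL replicate 2 (0.76, adjusted p = 0.0885). IEL against tissue gave 0.49 (SE 0.18, edgeR adjusted p = 0.0512), which was called without WT tissue replicate 1 (0.60, adjusted p = 0.0471) and without KO tissue replicate 1 (0.66, adjusted p = 0.0363). LPL against tissue gave -0.29 (SE 0.18, edgeR adjusted p = 0.197).

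Cftr (gene ID 12638, chromosome 6, 18170687 to 18322770) encodes the cAMP-gated chloride and bicarbonate channel of crypt cells. Tissue had it at 98.1 and 70.9 CPM in WT and 79.7 and 44.3 CPM in KO. In LPL it was at 99.9 and 181 CPM in WT and 122 and 193 CPM in KO, and in IEL at 180 and 123.5 CPM in WT and 134.7 and 122.9 CPM in KO. All 8 LPL and IEL libraries were above all tissue libraries, with WT LPL replicate 1 and WT tissue replicate 1 the closest pair. The log2 difference from tissue was 1.04 in LPL (SE 0.28, edgeR adjusted p = 0.011) and 0.95 in IEL (SE 0.28, edgeR adjusted p = 0.0209), and IEL and LPL differed by -0.09 (SE 0.27, edgeR adjusted p = 0.84). The IEL call was lost without WT tissue replicate 2 (0.84, adjusted p = 0.0839), KO tissue replicate 2 (0.77, adjusted p = 0.0751), WT IEL replicate 1 (0.80, adjusted p = 0.0749), KO IEL replicate 1 (0.94, adjusted p = 0.0636) or KO IEL replicate 2 (0.99, adjusted p = 0.0522). With the replicate 1 tissue libraries alone both calls were lost (LPL 0.72, adjusted p = 0.0975, IEL 0.59, adjusted p = 0.179). The summed crypt list was also higher in both preparations, mostly through Olfm4 as given beside Car8, and its part was not tested.

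**Figure D4:**
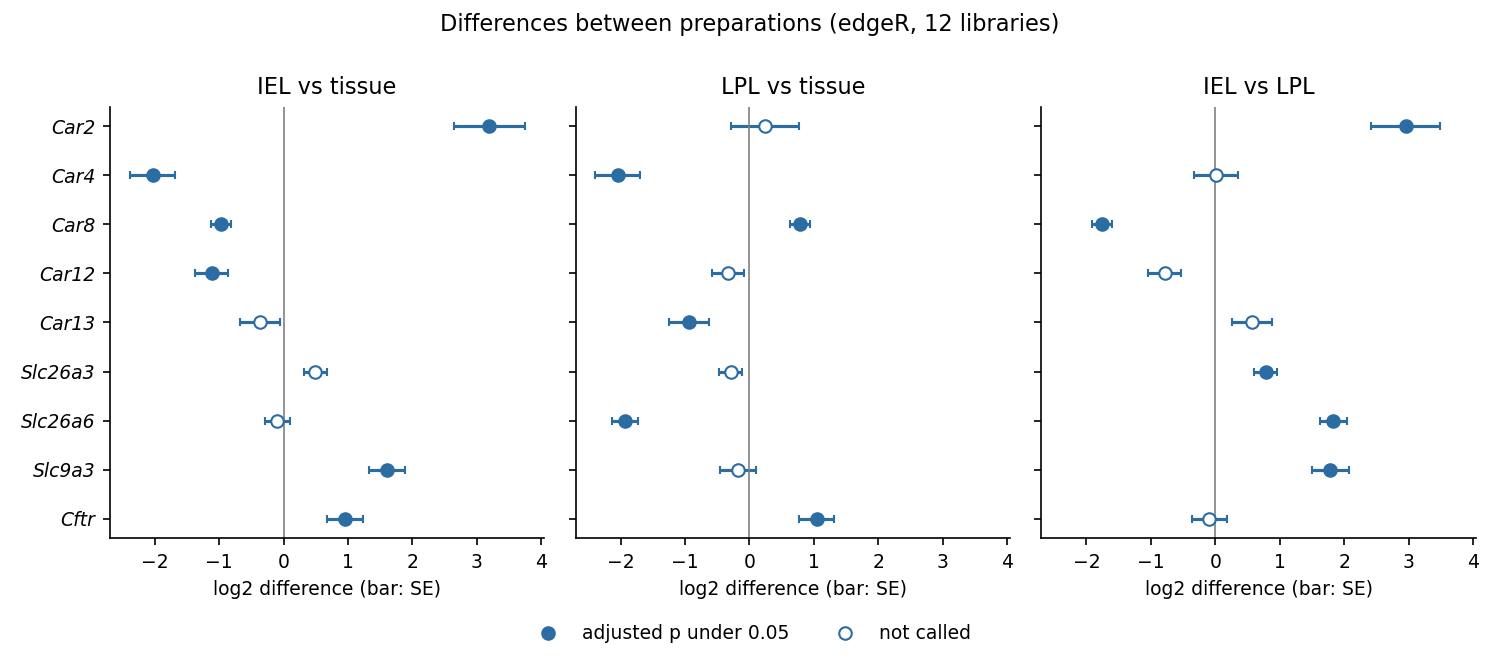
Log2 differences between preparations (x axis, shared scale) for 9 of the 10 genes (y axis), with standard errors as bars. Car1 is left out because it has 0 reads in 2 preparations. Filled points have an edgeR adjusted p under 0.05, and Car2 (3.19 and 2.95) and Slc9a3 (1.61 and 1.78) are to the right of 0 in both comparisons that put IEL first.

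Of 18 other acid-base and sodium transporter genes listed 12 were tested. In LPL against tissue 2 were called higher and 6 lower, where 27.3% and 28.0% of all genes were (median log2 -1.07 beside 0.03 over all genes). In IEL against tissue 2 were called higher and 5 lower, where 21.9% and 23.1% of all genes were (median -0.16 beside 0.05). Slc4a5, an electrogenic sodium bicarbonate cotransporter, rose from 0.479 to 1.85 CPM in tissue to 14.3 to 24.3 CPM in LPL and 32.6 to 43.3 CPM in IEL (log2 4.29, SE 0.36, edgeR adjusted p = 3.55e-05, and 5.21, SE 0.36, edgeR adjusted p = 7.37e-05). Slc9a2, the apical exchanger NHE2, fell by 3.22 in LPL (SE 0.34, edgeR adjusted p = 9.56e-05) and 2.27 in IEL (SE 0.32, edgeR adjusted p = 0.000958), while its relative Slc9a3 was higher in IEL. Atp1b1, the beta subunit of the sodium pump, was at 2710 to 4175 CPM in tissue and fell in LPL by 2.41 on the log2 scale (edgeR adjusted p = 9.61e-05). Slc26a2, a sulfate transporter, fell by 2.37 in IEL (edgeR adjusted p = 0.000875), and the bicarbonate cotransporter Slc4a7 rose there by 1.54 (edgeR adjusted p = 0.00147). Between IEL and LPL 4 of the 12 were called higher and 1 lower, beside 11.5% and 7.92% of all tested genes. Among them were Slc4a7 (1.38) and Atp1b1 (0.99) up and the sodium channel subunit Scnn1a (-0.91) down.

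Of 10 chloride secretion and potassium channel genes 9 were tested. LPL had 3 called higher and 5 lower than tissue (median -0.59), beside 27.3% and 28.0% of all tested genes. IEL had 1 higher and 3 lower (median -0.07), beside 21.9% and 23.1%. Slc12a2, the basolateral cotransporter that loads crypt cells with chloride for CFTR, was at 75.8 to 122.5 CPM in tissue and higher in LPL (226 to 316 CPM, log2 1.46, SE 0.23, edgeR adjusted p = 0.000861) and in IEL (125 to 262 CPM, log2 0.91, SE 0.23, edgeR adjusted p = 0.0118). Slc12a2 and Cftr were thus both called higher in the 2 preparations. Clca4b fell by 4.92 in LPL and 2.80 in IEL, and Clca4a was at 449 to 4065 CPM in tissue against at most 0.30 in LPL and 13.8 in IEL, while Ano1 was lower in IEL (-1.99) and Clcn2 lower in LPL (-0.86). IEL against LPL had 3 called higher and 2 lower, beside 11.5% and 7.92% of all tested genes. Clcn2 (0.99), Clca4a (5.46) and Clca4b (2.13) were higher and the potassium channel subunit Kcne3 was lower (-1.25).

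All 14 listed regulators of NHE3, DRA and CFTR were tested. Against tissue 2 were called higher and 7 lower in LPL (median -0.99), beside 27.3% and 28.0% of all tested genes. In IEL 4 were higher and 5 lower (median -0.09), beside 21.9% and 23.1%. Slc9a3r1 (NHERF1), a scaffold that holds NHE3 and CFTR at the apical membrane, was at 1740 to 3446 CPM in tissue, 167 to 218 in LPL and 453 to 886 in IEL, which gave -3.86 and -2.06 on the log2 scale (edgeR adjusted p = 1.8e-05 and 0.000476). The scaffold gene Pdzk1 was at 7.97 to 12.8 CPM in LPL, 138 to 259 in IEL and 137 to 345 in tissue, and Guca2b, the hormone uroguanylin that slows sodium uptake, at 26.9 to 35.6, 261 to 470 and 243 to 783 CPM. The scaffold gene Pdzd3 fell by 1.61 in LPL, and in IEL Guca2a (-1.63) and Ezr (-2.26) fell. Prkg2, the kinase that acts below uroguanylin's receptor, rose in IEL (log2 1.28 against tissue, edgeR adjusted p = 0.000713, and 1.66 against LPL, edgeR adjusted p = 0.00046). IEL against LPL had 8 of the 14 called higher and 1 lower, beside 11.5% and 7.92% of all tested genes. The median was 0.83 beside -0.03 over all genes, and Pdzk1 (4.39), Guca2b (3.55) and Pdzd3 (1.02) were among those higher.

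None of the 10 genes was called between KO and WT in tissue, LPL or IEL, where edgeR called 0% of the 14716 genes each time (463, 448 and 120 genes had an unadjusted p under 0.05, and DESeq2 called 6, 1 and 1). Car1 gave -1.85 in tissue (SE 2.00, edgeR adjusted p = 1), where 67 of its 80 reads were in 1 WT library. With 2 libraries a group the largest differences among the other 9 genes were those of Slc9a3 and Car4. In tissue, Slc9a3 was at 33.7 and 21.3 CPM in WT and 62.1 and 70.2 CPM in KO, a mean of 27.5 ± 8.81 (SD, n = 2) against 66.1 ± 5.72 (SD, n = 2). The log2 difference was 1.26 (SE 0.40, edgeR unadjusted p = 0.0117, adjusted p = 1). It was 0.88 between the replicate 1 libraries and 1.71 between the replicate 2 libraries. Those replicates differed in Ddx3y and also in regional and smooth muscle genes. Leaving out any of the 4 tissue libraries gave 0.90 to 1.63, and over the epithelial list both KO libraries were still above both WT libraries (2.19 and 2.30 against 1.61 and 0.829 per 1000 CPM). In IEL the Slc9a3 difference was 0.57 (SE 0.39, edgeR adjusted p = 1) and in LPL -0.06 (SE 0.40, edgeR adjusted p = 1).

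Car4 was at 740 and 395 CPM in WT and 895 and 1419 CPM in KO tissue, a mean of 568 ± 244 (SD, n = 2) against 1157 ± 371 (SD, n = 2), with a log2 difference of 1.03 (SE 0.48, edgeR unadjusted p = 0.0607, adjusted p = 1). It was 1.55 without WT replicate 1, 0.57 without WT replicate 2 and 0.65 without KO replicate 2. In IEL the means were 133 ± 13.3 (SD, n = 2) in WT and 297 ± 29.7 (SD, n = 2) in KO, with a log2 difference of 1.16 (SE 0.48, edgeR unadjusted p = 0.0388, adjusted p = 1). In LPL the genotypes overlapped (0.30, SE 0.48, edgeR adjusted p = 1), and without WT replicate 1 the value was -0.26. Over the epithelial list the IEL libraries did not overlap (13.9 and 13.3 in WT, 26.2 and 29.6 in KO), whereas the tissue libraries did (35.4 and 15.4 in WT, 31.5 and 46.6 in KO). The epithelial list itself summed to 20915 and 25666 CPM in WT and 28408 and 30492 CPM in KO tissue, and the distal list to 6933 and 6627 against 8345 and 8182, and their part in the tissue differences was not tested.

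**Figure D5:**
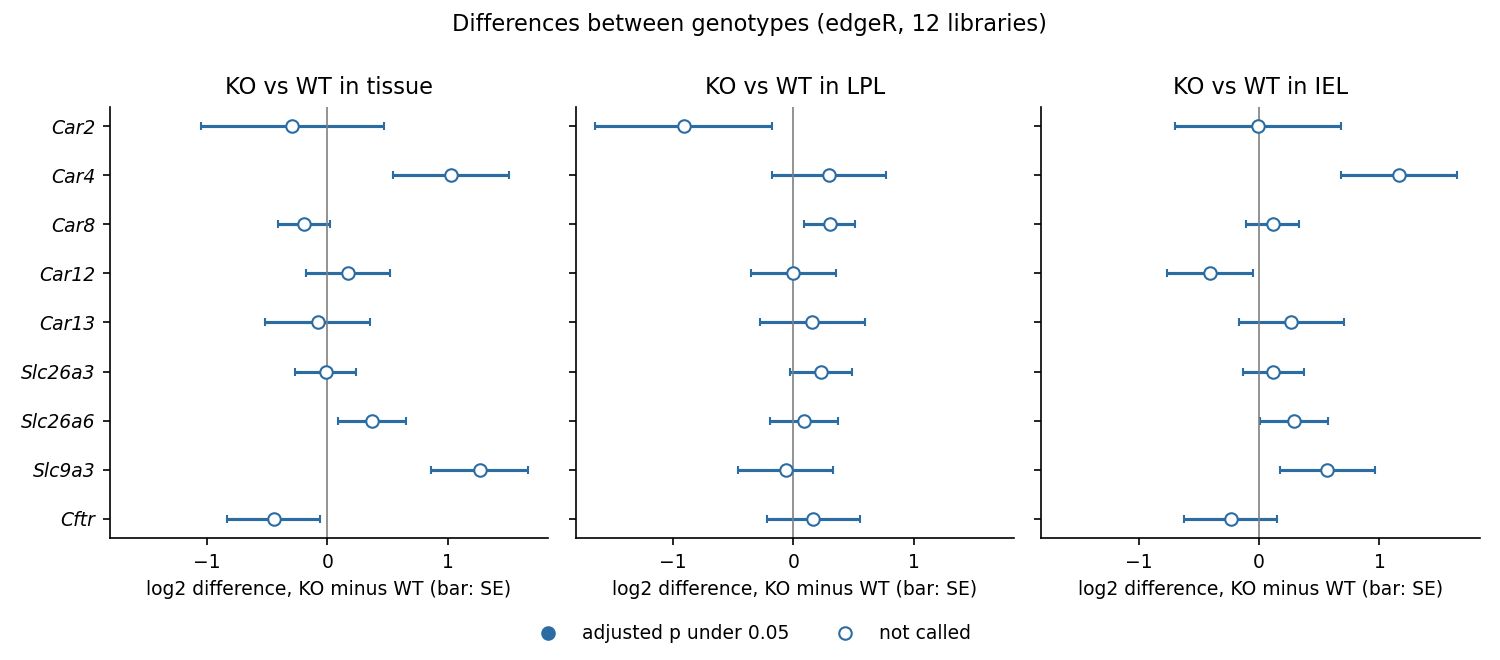
Log2 differences between KO and WT (x axis, shared scale, KO higher to the right) in tissue, LPL and IEL for 9 of the 10 genes (y axis), with standard errors as bars. Car1 is left out because it has 0 reads in LPL and IEL. All points are open, since none had an adjusted p under 0.05, and the points farthest right are Slc9a3 in tissue (1.26) and Car4 in IEL (1.16) and tissue (1.03).

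Counted over the 10 genes, both KO libraries were above both WT libraries for Car4, Slc26a6 and Slc9a3 in tissue and for Car4, Car13 and Slc9a3 in IEL, that is 3 of 10 in each, and for 0 of 10 in LPL. Over all tested genes this was so for 13.2% in tissue, 14.8% in IEL and 9.89% in LPL. Both KO libraries were below both WT libraries for Car2 alone in tissue and for 0 of 10 in LPL and IEL, beside 12.3%, 8.62% and 12.3% of all tested genes. The Car2 values there rest on 28 to 55 reads a library. Slc26a6 was 398 ± 60.1 CPM (SD, n = 2) in WT and 515 ± 6.17 CPM (SD, n = 2) in KO tissue, with a log2 difference of 0.37 (SE 0.28, edgeR adjusted p = 1). Car13 was 48.2 ± 3.49 CPM (SD, n = 2) in WT and 58.0 ± 6.98 CPM (SD, n = 2) in KO IEL (0.27, SE 0.44, edgeR adjusted p = 1).

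Cftr gave -0.45 in tissue (SE 0.39), 0.17 in LPL (SE 0.38) and -0.24 in IEL (SE 0.39). Slc26a3 gave -0.01, 0.23 and 0.12 with an SE of 0.25 each, Car8 -0.19, 0.30 and 0.11 and Car12 0.17, 0.00 and -0.41 in the same order. Car2 gave -0.91 in LPL (SE 0.73), where WT replicate 1 held the highest level, and 0.36 without that library. The median over the 9 genes other than Car1 was -0.01 in tissue, 0.16 in LPL and 0.12 in IEL, beside -0.01, 0.01 and -0.02 over all genes. No genotype difference was shown to differ between preparations: the closest was Slc9a3, whose KO effect in LPL minus that in tissue was -1.33 (SE 0.56, edgeR unadjusted p = 0.0421, adjusted p = 1), and edgeR called 0 genes in each of the 3 such comparisons (112 to 288 genes at an unadjusted p under 0.05).

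Regulators and partners of the transport genes had no genotype call either, in 0 of 6, 12, 9 and 14 tested genes of the 4 lists. In tissue the chloride channel gene Clcn2 gave 0.45 (SE 0.17, edgeR unadjusted p = 0.0246, adjusted p = 1), Clca4b 1.26 (SE 0.52, unadjusted p = 0.0391) and the NHE3 scaffold gene Pdzd3 0.44 (SE 0.19, unadjusted p = 0.0451). Among listed genes with a mean of at least 1 CPM the smallest unadjusted p in LPL was 0.111, for Wnk1 (-0.45), and in IEL 0.0921, for Prkg2 (0.44).

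Likeness over the 12 libraries, as Pearson's r of log2(CPM + 1) against 10462 genes, was read as a description, since the points share preparations and libraries. Car2 was closest to Chsy1 (0.98), to Ctsw (0.97), a protease gene of cytotoxic lymphocytes, and to Ipcef1 (0.97). Car4 was closest to the glycolytic gene Pgk1 (0.98), to Lman2 (0.97) and to Alkbh5 (0.96), Car8 to the small GTPase genes Rab15 (0.97) and Rab3d (0.97) and to Fam174b (0.96), and Car12 to Tbc1d9 (0.94), Sh3bp4 (0.93) and Acsl3 (0.93). Car13 was closest to Ms4a18, Atxn7l3b and Fkbp1a (0.97, 0.97 and 0.96), and Slc26a3 to the fatty acid oxidation gene Hadh, to Adipor2 and to Gal3st1 (0.96 each). Slc9a3 was closest to Hsd17b6 (0.95), Sec31a (0.94) and Prpf6 (0.93), and Cftr to Timm29 (0.99), Clic6 (0.98) and Smarcc1 (0.98). Car1, which has reads in 3 libraries only, gave Cyp2e1 (0.93), Ccne2 (0.92) and the Y-linked Uty (0.92). Among the 10 genes themselves the closest pair was Slc26a3 and Slc9a3 (0.79), the exchangers that together take up sodium chloride, and the most opposed was Car2 and Car8 (-0.82).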

How the data were processed

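The 12 tissue, LPL and IEL files hold raw read counts per Entrez gene, made by featureCounts on HISAT2 alignments per the file headers, whereas TopHat, with featureCounts, DESeq and mm10, is named in the submitters' processing notes, so the aligner is recorded in 2 ways. Poly(A) RNA was used per the labels, and whether counting used strand was not given in the sources used here. The 2 CD8 tables hold normalised signal, read counts divided by a size factor per library by the authors, each table on its own. Their columns are whole multiples of a step, but they were not used as counts. Entrez IDs were matched to symbols for 25275 of 27179 IDs (99.2% of reads), and coordinates and start regions are RefSeq's on GRCm38.p6, the assembly also called mm10. No counted gene overlaps a member.

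The counts of all 12 libraries were fitted together as 6 groups in edgeR 4.0.16 (R 4.3.3) with TMM, filterByExpr and the quasi-likelihood test, which leaves 14716 genes. Contrasts compared KO with WT in each preparation, preparations averaged over genotype, and KO effects between preparations. The CD8 tables were planned as a description, and a limma 3.58.1 trend test of log2(value + 1) on each table alone, keeping mean values of 5 or more, was added after the values were seen. Depth was 10186522 to 13620975 reads in genes per count library, and the reads per gene limit the precision. Scripts were tested on simulated data. Alternatives were RLE size factors, DESeq2 1.42.0, no filter, a replicate block, preparations fitted alone, each library left out, other level scales and, added later, replicate 1 tissue libraries alone. All 10 members were to be named, up to 4 genes of each pathway list per comparison by smallest p (mean 1 CPM or more), and the 3 genes of highest likeness (mean 5 CPM or more). One gene that this rule names is not reported here. The members and lists were chosen with earlier results of these data known. Of the 36 samples, 12 were not used here (6 CD8ab IEL libraries and 6 of RNA antisense purification). Labels call the libraries biological replicates but do not say how many mice each holds.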

Additional observations from a re-analysis of the deposited data

How the results depend on the processing

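The limits come first: 2 libraries a group, 28 to 55 reads for Car2 in each tissue library, 80 reads for Car1 in all, and preparations that differ in region, extraction and cells. Of 700 recomputed member differences 616 kept their direction and side of the threshold, 25 lost a call, 13 gained a call and 46 changed sign. These counts include Car1, whose test supports no call. No member was called between genotypes under any alternative. DESeq2 called 6 genes in tissue, 1 in LPL and 1 in IEL between genotypes where edgeR called 0. The 3 preparation comparisons called 6629, 8134 and 2856 genes, and IEL against tissue fell to 3955 with replicate 1 tissue libraries alone. A replicate block, with correlations between same-numbered libraries of 0.64 for tissue, 0.30 for LPL and 0.47 for IEL (numbers that, with 2 libraries a group, cannot show pairing), raised IEL against LPL to 5731 calls and gave 8686 and 9835 for the other preparation comparisons. Under the block Slc26a3 gained calls in IEL (0.51, adjusted p = 0.00579) and LPL (-0.29, adjusted p = 0.0438) against tissue, and Car12 and Car13 in IEL against LPL. In the CD8 tables the block called 0 genes, and dropping the filter called 3 in the IL-15 set. Of the members, 4 had a higher mean in IEL than in tissue, 5 on plain library totals and 8 over the epithelial list, where Car8 (0.35), Car12 (0.25), Car13 (0.94) and Slc26a6 (1.27) turned positive, as did Car12 (1.07), Car13 (0.37), Slc26a3 (1.04) and Slc9a3 (1.08) for LPL over tissue.

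With all libraries kept, fitted differences that changed sign were Slc26a3 between genotypes in tissue (0.0088 with RLE and 0.0089 with DESeq2, against -0.014), Car12 in LPL (-0.033 fitted alone), Car2 in IEL (0.0039 without the filter, 0.018 with the replicate block) and Car4 for IEL against LPL (-0.015 without the filter and -0.016 fitted alone). Leaving out each library gave 0 to 3 genotype calls in tissue, 0 to 4 in LPL and 0 to 1 in the IL-15 set, and 1267 to 2561 calls for IEL against LPL. Members that turned ranged, for KO against WT in tissue, from -0.95 to 0.42 (Car13) and -0.35 to 0.21 (Slc26a3). In LPL they ranged from -2.50 to 0.36 (Car2), -0.26 to 1.21 (Car4), -0.14 to 0.14 (Car12), -0.24 to 0.70 (Car13), -0.042 to 0.55 (Slc26a3), -0.20 to 0.45 (Slc26a6), -0.50 to 0.55 (Slc9a3) and -0.20 to 0.65 (Cftr). In IEL they ranged from -0.40 to 0.55 (Car2), -0.86 to 0.33 (Car12) and -0.45 to 0.069 (Cftr). IEL against tissue ranged from -0.62 to 0.066 (Car13) and -0.18 to 0.0089 (Slc26a6), LPL against tissue from -0.55 to 0.64 (Car2) and -0.48 to 0.050 (Slc9a3), and IEL against LPL from -0.27 to 0.44 (Car4) and -0.28 to 0.13 (Cftr). Car2 in the CD8 tables ranged from -0.50 to 0.49 and, in the IL-15 set, from -0.11 to 0.19. The causes were not tested.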
